A study of Homo sapiens with 8 samples.

Results

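The constitutive proteasome subunits were taken as the genes whose symbols join PSMA, PSMB, PSMC or PSMD to a number, leaving out the inducible catalytic subunits PSMB8, PSMB9 and PSMB10. They are 36 of the 20263 genes in the deposited table: 16 genes of the core particle (PSMA and PSMB) and 20 genes of the regulatory particle (PSMC and PSMD). The RNA came from cultures of the human liver cancer (hepatocellular carcinoma) line MHCC-97H, grown in DMEM with serum and exposed for 24 hours to DMSO, the solvent, or to lenvatinib, an oral inhibitor of VEGF and FGF receptor kinases. DMSO has 4 libraries, titled NC1 to NC4 and called DMSO libraries 1 to 4 here. Lenvatinib has 1 library each at 40, 60, 80 and 100 µM, titled L1 to L4 in that order. All libraries come from 1 cell line, and nothing in the labels tells separate DMSO cultures from repeats of 1 culture. The p-values therefore reflect how much these libraries vary, and that variation may be technical.

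The proteasome degrades proteins that carry ubiquitin chains. Its core particle is a barrel of stacked rings: outer rings of alpha subunits (PSMA genes) gate the entry, and inner rings of beta subunits (PSMB genes) hold the proteolytic sites, of which PSMB5 provides the chymotrypsin-like, PSMB6 the caspase-like and PSMB7 the trypsin-like activity. The regulatory particle caps the barrel, with a ring of ATPases (PSMC genes) that unfold substrates and non-ATPase subunits (PSMD genes) that bind and remove ubiquitin. Subunit genes are known to be transcribed together when proteasome activity is short, through the factor NFE2L1.

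The counts summed to between 10181973 (60 µM) and 37384578 (80 µM) per library, and the 60 µM library, which had reads for 11076 genes against 13290 to 14340 in the others, stands apart in many of the values that follow. A gene with 0 counts could still have up to 3, which is 0.0802 to 0.295 CPM (counts relative to the library total) depending on the library, with counting error alone in view. Libraries differed along the GC content of genes. The slope of a library's log2 deviation from the mean library per 10 percentage points of GC content lay between -1.01 and 0.29 in DMSO, and in the lenvatinib arm was 0.68, 1.84, -0.58 and -0.61 from the lowest to the highest dose. Of 10 liver epithelial markers, the keratins KRT8 and KRT18 were abundant in every library (lowest value 1331 CPM) and the others were low. EPCAM and CDH1, also epithelial, reached at most 0.93 and 1.68 CPM. The liver products ALB, AFP, APOA1 and TF had 6, 2, 10 and 4 reads, all of them in the 60 µM library. SERPINA1 had 99 reads in all and was also highest at 60 µM, at 1.61 CPM. HNF4A was at 1.00 to 9.83 CPM. All 4 lenvatinib libraries lay below the DMSO range for HNF4A and CDH1, against 3.38% of all genes tested. For the fibroblast marker COL1A1 and the blood marker HBB all 4 lay above it, against 3.08%. CDH1 and HBB were too low to be tested, and HBB reached at most 4.18 CPM, at 60 µM. Of 15 markers of other cell types, 5 had 0 reads: PTPRC and CD3E (blood and immune), PDGFRA and COL1A2 (fibroblast) and KDR (endothelial). Others were detected, led by COL1A1 (23.9 to 42.5 CPM), DCN (3.22 to 21.3 CPM), CD68 (2.46 to 12.6 CPM) and VWF (0 to 3.89 CPM). Summed over each list, the 10 liver epithelial markers were at 5043 to 14383 CPM in DMSO and 3689 to 13182 CPM with lenvatinib. This sum, KRT8 and KRT18 each lay below the DMSO range at both 80 and 100 µM, as did 11.4% of all genes tested. The 6 fibroblast markers were at 39.2 to 47.2 CPM in DMSO and 39.2 to 54.7 CPM with lenvatinib. In the same order, the 5 blood and immune markers were at 5.64 to 13.1 and 3.11 to 14.8 CPM. The 4 endothelial markers were at 1.44 to 2.68 and 0 to 4.06 CPM. Their part in the results was not tested. In bulk RNA, fewer cells of a type and less RNA per cell cannot be told apart.

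Subunit mRNAs covered a wide range of levels in DMSO. On the per-length TPM scale as deposited, the alpha subunit PSMA7 was the highest core member at 976 ± 133 TPM (SD, n = 4), followed by PSMB7 at 884 ± 40.8, PSMB4 at 861 ± 59.4 and PSMB3 at 781 ± 132 TPM. Each of these 4 differed from its neighbour in the order by less than the larger of their SDs. PSMA3 was the lowest of the tested core members at 67.2 ± 43.8 TPM. In the regulatory particle the ATPase PSMC3 led with 696 ± 44.7 TPM, and PSMD2, a scaffold of the base that binds ubiquitin-like domains, came next with 393 ± 86.0 TPM. PSMD12, a subunit of the lid, was the lowest at 16.2 ± 14.4 TPM. FPKM gave the same order in both particles (Spearman rho = 1 over the subunits, a description). Deposited TPM and FPKM are proportional within a library, so this is no separate check of the order. PSMA8, an alpha subunit of germ cells, had 0 reads in all libraries, and PSMB11, the beta subunit of thymic epithelium, had 2 reads in all. These genes were not tested, and the other 34 members, 14 of the core and 20 of the regulatory particle, passed the filter of a mean of at least 1 CPM. Whether reads were counted by strand is not given in the sources used here, so reads from exons shared on opposite strands (PSMA2 with MRPL32, PSMC1 with NRDE2, PSMC5 with FTSJ3, PSMD1 with HTR2B and PSMD13 with SIRT3) cannot be told apart. GENCODE v29 names 30 pseudogenes after 11 members, 13 of them after PSMC1, and none has an entry in the table, so values of these members are uncertain to that extent.

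The members were divided into 2 sets by a pair of DMSO libraries, after the values were seen. In 14 members DMSO library 3 lay above DMSO library 1, and in 20 members it lay below. Over all 11827 genes tested, 51.6% had library 3 above library 1. The set of 14 holds 11 regulatory members (PSMC1, PSMC2, PSMC6, PSMD1, PSMD5, PSMD6, PSMD7, PSMD10, PSMD11, PSMD12 and PSMD14) and 3 core members (PSMA2, PSMA3 and PSMA4). Its median DMSO level was 51.5 TPM (16.2 to 195), and the coding GC content of its members ran from 40.1% to 48.8%. The other set, with every PSMB member, PSMA1, PSMA5, PSMA6, PSMA7, PSMC3, PSMC4, PSMC5, PSMD2, PSMD3, PSMD4, PSMD8, PSMD9 and PSMD13, had a median of 354 TPM (57.4 to 976) and a coding GC content of 42.3% to 59.4%. At 60 µM all 14 members of the first set lay below the range of the 4 DMSO libraries, against 2 of the 20 in the other set. Genes at large were divided in much the same way: 86.7% of genes with library 3 above library 1 lay below the DMSO range at 60 µM, and 16.4% of those with library 3 below library 1. Over all genes tested the share was 52.7%. The same DMSO libraries define the sets and the range, so the split is a description, with no test.

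Coding sequence is shown for the extreme members of each particle. These had the lowest or the highest value relative to DMSO at 60 µM and were chosen after their values were seen. For each, the 120 bases at the middle of the longest coding sequence in GENCODE v29 (GRCh38) are shown on the coding strand, with G and C in capitals. PSMA4, at chr15:78540405-78552419 on the plus strand, and PSMC6, at chr14:52707172-52728587 on the plus strand, had the lowest ratio of the 60 µM CPM to the DMSO mean. The value of PSMC6 rests on 4 reads, and on the log2 (CPM + 0.5) scale PSMD1 lay lower, at -4.76 against -4.54. PSMB6, at chr17:4796144-4798503 on the plus strand, and PSMD8, at chr19:38374536-38383824 on the plus strand, were the highest on both scales.
PSMA4, coding bases 334 to 453 of 786: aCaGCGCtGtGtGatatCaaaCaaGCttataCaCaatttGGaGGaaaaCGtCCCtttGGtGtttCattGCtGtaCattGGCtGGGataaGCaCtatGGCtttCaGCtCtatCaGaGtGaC
PSMC6, coding bases 547 to 666 of 1212: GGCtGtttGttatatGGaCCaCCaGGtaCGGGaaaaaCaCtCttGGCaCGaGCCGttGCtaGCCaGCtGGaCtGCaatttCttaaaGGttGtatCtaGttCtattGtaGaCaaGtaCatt
PSMB6, coding bases 301 to 420 of 720: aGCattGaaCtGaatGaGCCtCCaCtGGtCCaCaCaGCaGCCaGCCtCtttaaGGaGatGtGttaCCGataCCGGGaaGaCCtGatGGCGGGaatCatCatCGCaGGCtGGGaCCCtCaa
PSMD8, coding bases 466 to 585 of 1053: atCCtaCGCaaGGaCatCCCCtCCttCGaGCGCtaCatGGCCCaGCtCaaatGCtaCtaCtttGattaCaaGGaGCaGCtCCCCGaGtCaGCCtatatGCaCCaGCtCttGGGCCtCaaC
The stretches hold 52, 53, 65 and 65 bases that are G or C out of 120, and the whole coding sequences are 40.1% (PSMA4), 41.5% (PSMC6), 57.4% (PSMB6) and 59.4% (PSMD8) G or C. These members do not stand for their sets. PSMA4 has the lowest coding GC content of the first set and PSMD8 the highest of the other, and the sets overlap (40.1% to 48.8% and 42.3% to 59.4%).

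**Figure D1:**
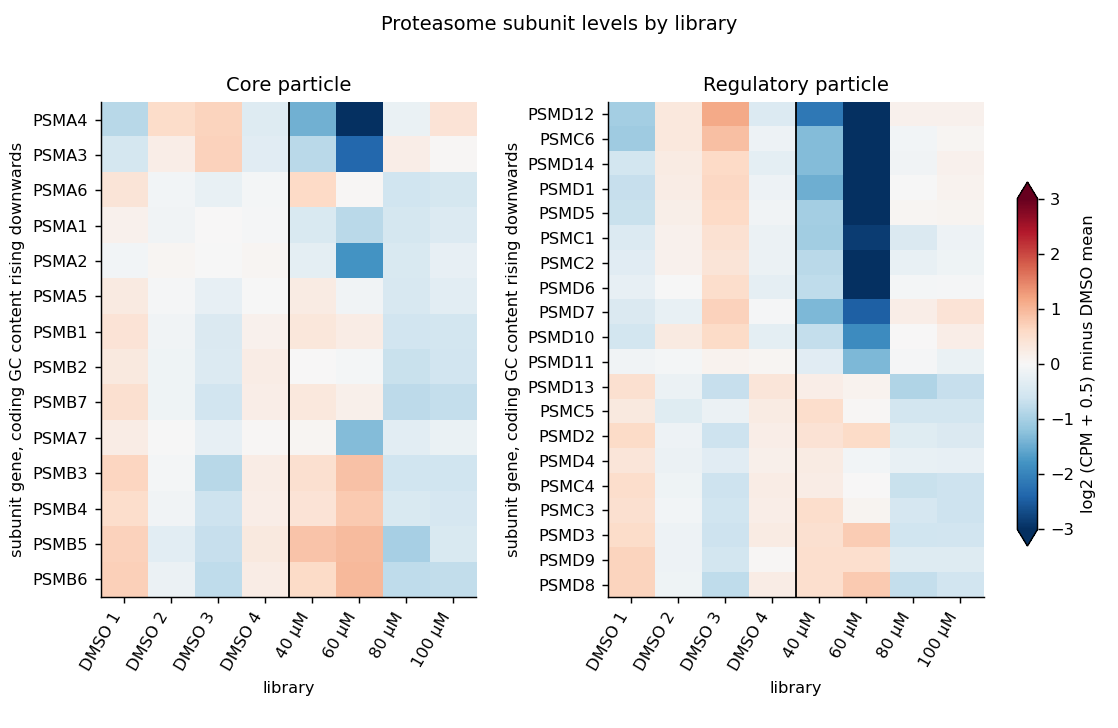
Level of each tested subunit in each library, as log2 (TMM-scaled CPM + 0.5) minus the mean of the 4 DMSO libraries, with core members on the left and regulatory members on the right, ordered by coding GC content. The 14 members that are higher in DMSO library 3 than in library 1 all lie below the DMSO range at 60 µM, and colours end at -3 and 3.

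Over the 34 tested members, the log2 deviation from the DMSO mean followed coding GC content with a Pearson r of 0.78 at 40 µM and 0.79 at 60 µM. The sign was the opposite at the higher doses, with r = -0.58 at 80 µM and -0.67 at 100 µM. These values describe members that share libraries and scaling, and carry no test. GC content of the whole transcript gave r = 0.70 at 40 µM and 0.72 at 60 µM. Transcript length (r = -0.49 and -0.44) and number of exons (r = -0.35 and -0.41) followed the deviations at these doses less closely. Some members stood away from the trend of all genes at 60 µM, which was drawn on whole-transcript and not on coding GC content. PSMA5 was 2.46 and PSMB2 2.15 above that trend on the log2 scale, and PSMD1 lay -2.65 from it. The 2 measures differ for PSMA5 (37.2% of the transcript, 45.9% coding) and PSMB2 (43.6% and 49.8%). Distances from a trend on coding GC content were not computed. These were picked after their values were seen. How far base composition accounts for the difference between the sets was not tested.

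**Figure D2:**
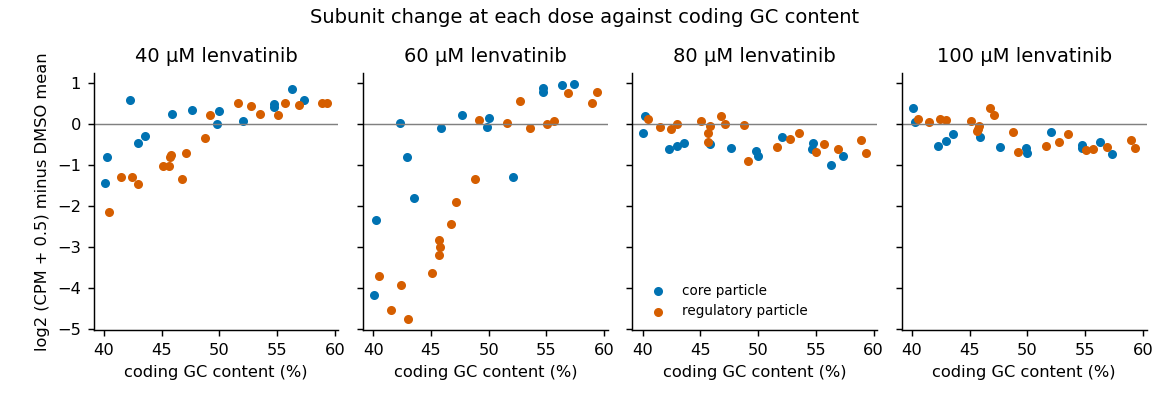
Change of each tested subunit at each dose (log2 of CPM + 0.5, minus the DMSO mean) against its coding GC content in percent, with 1 point per gene and core and regulatory members in separate colours. The points rise with GC content at 40 and 60 µM (r = 0.78 and 0.79) and fall with it at 80 and 100 µM (r = -0.58 and -0.67).

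In the comparison of the 4 lenvatinib with the 4 DMSO libraries, no subunit passed the test, and most estimates were negative. Of the 14 core members 10 had a negative log2 fold change, with a median of -0.19, and of the 20 regulatory members 16 did, with a median of -0.43. Over all 11827 genes, 56.2% were negative and the median was -0.11. edgeR's quasi-likelihood test with Benjamini-Hochberg adjustment called 0 members and 0 genes in either direction (0% higher and 0% lower), and DESeq2 and limma-voom called 0 members in this design too. At an unadjusted p under 0.05 PSMA1 alone among the members was lower, with 1.29% of all genes lower and 3.13% higher at that threshold. Without the 60 µM library the medians were -0.23 in the core and -0.25 in the regulatory particle.

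With the GC slopes of the libraries as a covariate, all 34 tested members had a negative estimate, from -0.67 (PSMD13) to -0.05 (PSMD10). The median was -0.41 in the core and -0.34 in the regulatory particle, against -0.06 over all genes tested, of which 57.3% were negative. edgeR called 0 members in this fit, while it called 1.5% of all genes higher and 1.81% lower. At an unadjusted p under 0.05, 13 members were lower (7 core and 6 regulatory) and 0 higher, against 12% of all genes lower and 8.4% higher. The lowest adjusted p of edgeR's quasi-likelihood test with Benjamini-Hochberg adjustment was 0.0580 in the core (PSMA1) and 0.114 in the regulatory particle (PSMD13).

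Whether single subunits passed the test in the fit with the covariate depended on the tool, the scaling, the filter and 2 lenvatinib libraries. DESeq2 called 12 members lower and 0 higher, against 10.6% of genes lower and 6.81% higher: PSMA1, PSMB1, PSMB2, PSMB3, PSMB4, PSMB6 and PSMB7 in the core, and PSMC1, PSMC4, PSMD3, PSMD8 and PSMD13 in the regulatory particle. limma-voom called PSMA1 lower (background 4.02%). In edgeR, DESeq2 size factors gave 7 core and 4 regulatory members lower (background 5.5%), a filter at 5 CPM gave 2 core members (background 2.67%), and only the 80 and 100 µM libraries gave 10 and 8 (background 11%). edgeR without the 60 µM library called 9 core and 8 regulatory members lower (background 13.7%, medians -0.33 and -0.26), and without the 40 µM library 6 and 2 (background 5.77%). With offsets smooth in GC content in place of the covariate, 20 of the 34 members were negative, the core median was 0.26 and 0 members were called. On scaling by library totals the median of all genes moved from -0.06 to 0.05 in this fit, 31 of 34 members were negative, and 33 lay below the median of all genes, as many as with TMM scaling.

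**Figure D3:**
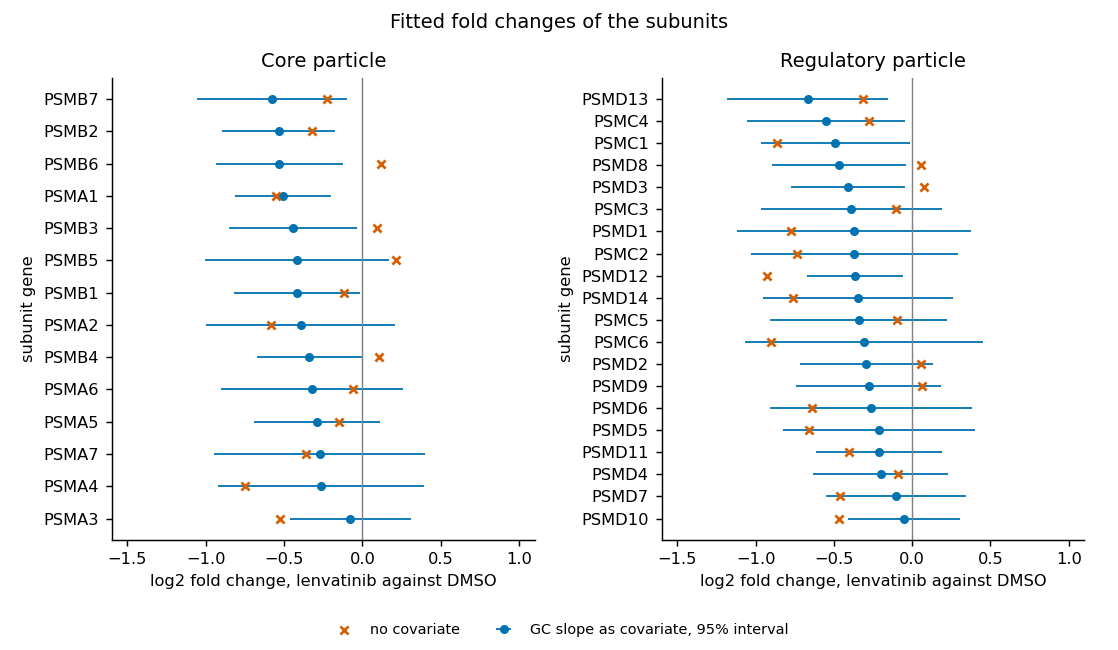
Log2 fold change of each tested subunit, lenvatinib against DMSO (4 libraries each), without a covariate (crosses) and with the GC slope as covariate (points, with 95% intervals as bars). With the covariate all 34 points lie below 0, from -0.67 for PSMD13 to -0.05 for PSMD10.

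PSMA1 and PSMA2 had groups that did not overlap in TMM-scaled CPM, a count close to the background and one that depended on the scaling. PSMA1, an alpha subunit (chr11:14504876-14643617, minus strand), stood at 142, 119, 129.8 and 126 CPM in DMSO libraries 1 to 4 and at 93.7, 74.0, 88.7 and 96.4 CPM at 40, 60, 80 and 100 µM. Every lenvatinib library lay below every DMSO library. Its log2 fold change was -0.55 ± 0.22 (SE) without and -0.51 ± 0.12 with the covariate. PSMA2, another alpha subunit (chr7:42916857-42932223, minus strand), was at 135, 148, 142 and 149 CPM in DMSO and at 117, 40.7, 104 and 120.1 CPM over the 4 doses. Its groups did not overlap either, and its fold change with the covariate was -0.39 ± 0.23 (adjusted p = 0.388, edgeR quasi-likelihood). PSMA1 and PSMA2 were the 2 of 34 members with all lenvatinib libraries below all DMSO libraries, at a background of 3.38% of genes, and 0 members lay above (background 3.08%). With DESeq2 size factors they were the same 2 genes (background 3.42%). No alpha subunit was among the members below on the other 2 scales, which were PSMB2 on library totals (background 3.49%) and PSMB1, PSMB2, PSMB7, PSMC4 and PSMD13 on deposited TPM (background 4%). No member lay above on these 3 scales, where 3.93%, 4.96% and 4.84% of genes did.

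Over the DMSO libraries the other tested alpha subunits varied more in TMM-scaled CPM. In deposited TPM, PSMA3 and PSMA4 varied more than PSMA1 and PSMA2, and PSMA5, PSMA6 and PSMA7 varied less. PSMA3 (chr14:58244831-58272012, plus strand) was at 19.3, 32.2, 45.5 and 22.3 CPM with DMSO and at 15.98, 5.15, 32.3 and 29.02 CPM with rising dose. The values at 40 and 60 µM lay below the DMSO range and those at 80 and 100 µM inside it, and its estimate with the covariate was the highest of the core at -0.08 ± 0.15. PSMA4, whose coding stretch is shown above, had the lowest 60 µM value relative to DMSO in the core. It was at 30.8, 81.6, 87.7 and 42.4 CPM with DMSO and at 20.2, 2.57, 47.8 and 73.2 CPM over the doses. The 60 µM value rests on 16 reads (exact Poisson 95% interval 9.15 to 26.0 reads) and is 23.6-fold below the DMSO mean, while the 80 and 100 µM values lie inside the DMSO range. PSMA7, the most abundant core mRNA (chr20:62136735-62143430, minus strand), was at 585, 494, 423 and 513 CPM with DMSO and at 524, 204, 405 and 438 CPM over the doses. Only its 60 and 80 µM values lay below the DMSO range, and its 60 µM value did so although its coding GC content is 52.1%. PSMA5 and PSMA6 had estimates of -0.29 and -0.32 with the covariate.

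All 3 catalytic subunits had negative estimates with the covariate and groups that overlapped. PSMB5, the chymotrypsin-like subunit and the main target of proteasome inhibitors such as bortezomib (chr14:23016543-23035230, minus strand), was at 352, 174, 134 and 267 CPM with DMSO and at 390.2, 417, 108 and 159 CPM over the doses. The 40 and 60 µM libraries lay above the DMSO range and the 80 µM library below it. Its log2 fold change was 0.21 ± 0.51 without and -0.42 ± 0.23 with the covariate. PSMB6, the caspase-like subunit, was at 354, 189, 126 and 251 CPM with DMSO and at 322, 421, 125 and 129 CPM over the doses, with the 60 µM library above the DMSO range and the 80 µM library just under its lower end. Its log2 fold change went from 0.12 ± 0.50 to -0.53 ± 0.16 with the covariate. PSMB7, the trypsin-like subunit (chr9:124353466-124415444, minus strand), was at 649, 424, 314 and 535 CPM with DMSO and at 576, 514, 269 and 284 CPM over the doses. The 80 and 100 µM libraries lay below the DMSO range, and its estimate with the covariate, -0.57 ± 0.19 (adjusted p = 0.136, edgeR quasi-likelihood), was the lowest of the core.

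The other beta subunits are structural. PSMB2 (chr1:35599544-35641844, minus strand) was at 296, 221, 182 and 282 CPM with DMSO and at 243, 231, 152 and 161 CPM over the doses, low at 80 and 100 µM and inside the DMSO range at 40 and 60 µM. Its log2 fold change with the covariate was -0.53 ± 0.14 (adjusted p = 0.0809, edgeR quasi-likelihood). PSMB1, PSMB3 and PSMB4 had estimates of -0.42, -0.44 and -0.34. On deposited TPM, PSMB1 varied little in DMSO at 357, 371, 370.0 and 352 TPM, and was at 305, 219, 302 and 298 TPM over the doses. All 4 doses were lower on that scale.

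**Figure D4:**
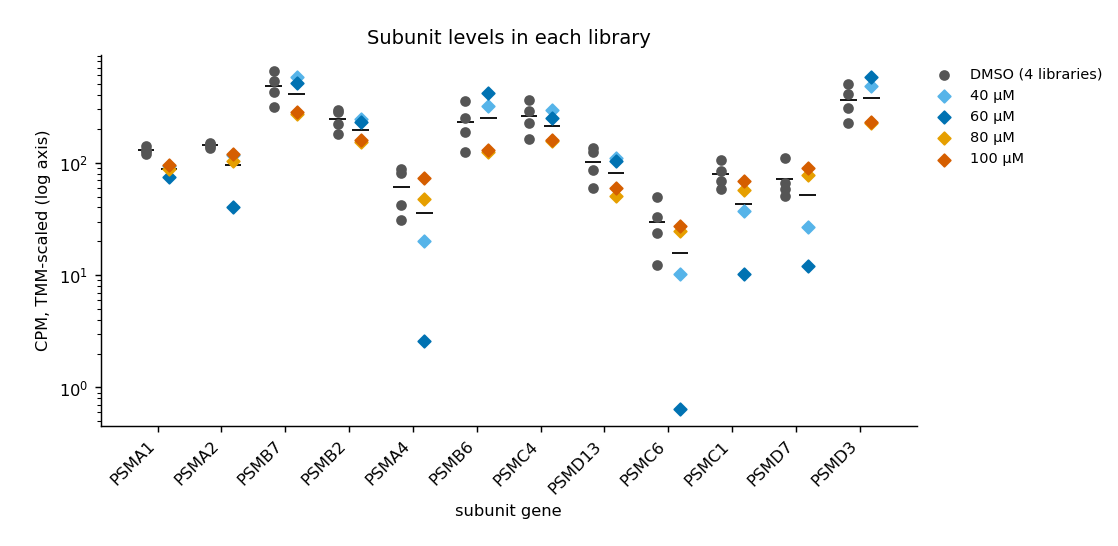
TMM-scaled CPM of 12 subunits in each library (log axis), with circles for the 4 DMSO libraries, diamonds for the 4 doses and a line at each group's mean. PSMA1 and PSMA2 show no overlap of the groups, and PSMA4 and PSMC6 show the low 60 µM library (16 and 4 reads).

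Among the ATPases, the 6 PSMC members split between the sets. PSMC4 (chr19:39971005-39981441, plus strand) was at 360.0, 227, 162 and 289 CPM with DMSO and at 292, 249.8, 156 and 160.5 CPM over the doses, below the DMSO range at 80 and 100 µM only. Its log2 fold change was -0.28 ± 0.35 without and -0.55 ± 0.20 with the covariate (adjusted p = 0.165, edgeR quasi-likelihood). PSMC1 (chr14:90256495-90275429, plus strand) was at 57.8, 83.9, 106 and 68.3 CPM with DMSO and at 37.3, 10.3, 56.8 and 68.7 CPM over the doses. Here 40, 60 and 80 µM lay below the DMSO range and 100 µM inside it, and the estimate went from -0.87 ± 0.52 to -0.49 ± 0.18 with the covariate. PSMC6, singled out after its values were seen, was at 12.2, 32.7, 49.4 and 23.6 CPM with DMSO and at 10.3, 0.643, 24.7 and 27.1 CPM over the doses. At 60 µM it had 4 reads (exact Poisson 95% interval 1.09 to 10.2 reads), 45.8-fold below the DMSO mean, and at 80 and 100 µM it was inside the DMSO range. PSMC2, PSMC3 and PSMC5 had estimates of -0.37, -0.39 and -0.34 with the covariate.

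Among the non-ATPase subunits, the lid subunit PSMD13 had the lowest estimate of all members in the fit with the covariate. Without the covariate PSMD12 was the lowest, at -0.92. PSMD13 (chr11:236546-252984, plus strand) was at 134, 85.5, 59.7 and 125 CPM with DMSO and at 111, 104, 50.9 and 59.2 CPM over the doses, with 80 and 100 µM below the DMSO range and 40 and 60 µM inside it. Its log2 fold change was -0.31 ± 0.38 without and -0.67 ± 0.20 with the covariate (95% interval -1.18 to -0.15). The ubiquitin receptor PSMD4 (chr1:151254703-151267479, plus strand) was at 335, 229, 205 and 288 CPM with DMSO and at 309, 243, 223 and 218 CPM over the doses. All 4 lenvatinib values lay inside the DMSO range, and the estimate with the covariate was -0.20 ± 0.17. PSMD7, a lid subunit that pairs with the deubiquitinase PSMD14 (chr16:74296775-74306288, plus strand), was at 50.3, 58.6, 111 and 66.1 CPM with DMSO and at 26.6, 12.1, 78.1 and 90.5 CPM over the doses. The 2 lower doses lay below the DMSO range and the 2 higher doses inside it, and the estimate with the covariate was -0.10 ± 0.17.

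The 3 assembly chaperones of the base that carry PSMD symbols, PSMD5, PSMD9 and PSMD10, had estimates with the covariate of -0.21, -0.28 and -0.05. PSMD10, known as gankyrin and as a gene raised in liver cancer (chrX:108084207-108091618, minus strand), was at 17.6, 31.1, 38.9 and 21.1 CPM with DMSO and at 15.6, 6.59, 26.1 and 30.0 CPM over the doses. Its 40 and 60 µM values lay below the DMSO range and its 80 and 100 µM values inside it. PSMD1, the other scaffold of the base, had 13 reads at 60 µM, 35.2-fold below its DMSO mean of 73.5 ± 27.6 CPM (SD, n = 4). PSMD14, the deubiquitinase, had 17 reads there, 18.8-fold below 51.4 ± 18.8 CPM. Both were singled out after their values were seen, and both were inside the DMSO range at 80 and 100 µM.

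Dose by dose, core members made up most of those below the DMSO range at 80 µM and at both higher doses, and regulatory members most of those below it at both lower doses. At 40 µM 15 members lay below the range and 4 above, against 38.6% and 34.2% of all genes. At 60 µM 16 lay below and 6 above, against 52.7% and 34.8%. At 80 µM 14 lay below and 0 above, against 16.2% and 14.4%, and at 100 µM 12 lay below and 0 above, against 15.1% and 13.2%. Both 80 and 100 µM were below the range in 7 of 14 core and 3 of 20 regulatory members, against 11.4% of all genes, and above it in 0 members, against 9.9%. Both 40 and 60 µM were below it in 4 core and 11 regulatory members, against 36.4%. With 1 library per dose these counts have no replicate check.

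No member passed the test for a change per 20 µM within the lenvatinib arm. The median slope was -0.29 on the log2 scale in the core (10 of 14 negative) and 0.26 in the regulatory particle (9 of 20 negative), against 0.06 over all genes, of which 47% were negative. edgeR's quasi-likelihood test, DESeq2 and limma-voom each called 0 members, and edgeR called 0 genes (0% in each direction). At an unadjusted p under 0.05 PSMA6 (slope -0.40 ± 0.15, SE) and PSMC5 (-0.37 ± 0.16) were lower with dose and PSMD7 (0.73 ± 0.29) was higher, against 2% and 5.39% of all genes. On library totals the medians were 0.02 and 0.54, with the GC slope as covariate the regulatory median was -0.11, and without the 40 µM library it was 0.82. The difference between the particles was not tested.

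As shares of the library, without TMM scaling, both particles were lower with lenvatinib. The summed TPM of the core members was 5727, 5908, 5659 and 5555 in DMSO libraries 1 to 4 and 4722, 3640, 4817 and 4981 at 40, 60, 80 and 100 µM. For the regulatory members it was 3366, 3335, 3697 and 3408 in DMSO and 2727, 1833, 3179 and 3062 over the doses. In both sums each lenvatinib library lay below each DMSO library, and the 60 µM library was the lowest. As a share of counts the core held 0.325% to 0.369% in DMSO and 0.230% to 0.309% with lenvatinib, and the regulatory particle 0.359% to 0.365% and 0.215% to 0.321%. The count shares do not use the TMM factors. Those factors were 0.85 to 1.32 in DMSO and 0.78, 0.61, 1.28 and 1.27 over the doses. Divided by them, both count shares lie inside the DMSO range at 40 and 60 µM and below it at 80 and 100 µM. The lack of overlap thus depends on the scaling. The most abundant members weigh most in the sums, which carry no test.

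The inducible catalytic subunits replace PSMB5, PSMB6 and PSMB7 in the immunoproteasome. Their mean ratio to the constitutive partner was higher with lenvatinib in all 3 pairs. The groups did not overlap in 2 of 3 pairs on deposited TPM, and in 3 of 3 on counts. The ratio of PSMB9 to PSMB6 in deposited TPM was 0.0263, 0.0327, 0.0193 and 0.0287 in DMSO and 0.118, 0.129, 0.136 and 0.132 over the doses, a 4.82-fold difference of means. Its groups did not overlap (exact two-sided permutation test over libraries, p = 0.0286, the smallest that 4 against 4 allow, and 0.0429 after adjustment over the 3 ratios). The ratio of PSMB10 to PSMB7 was 0.0609, 0.0485, 0.0515 and 0.0528 in DMSO and 0.0942, 0.157, 0.0753 and 0.0650 over the doses, with no overlap and the same exact p-values. The log2 difference of that ratio was 0.79, and 0.54 without the 60 µM library. The ratio of PSMB8 to PSMB5 had means of 0.193 ± 0.0260 and 0.281 ± 0.0741 (SD, n = 4) and overlapping groups (exact permutation p = 0.0571 before and after adjustment). On counts its groups did not overlap, and the exact permutation p was 0.0286 before and after adjustment. These ratios were chosen after the data were seen, so their p-values are descriptive, and no background over other gene pairs was taken. Transcript GC content was 53.9% for PSMB9 and 54.5% for PSMB6, 55.3% for PSMB8 and 51.9% for PSMB5, and 60.1% for PSMB10 and 49.9% for PSMB7. The part of GC content in the ratios was not tested.

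**Figure D5:**
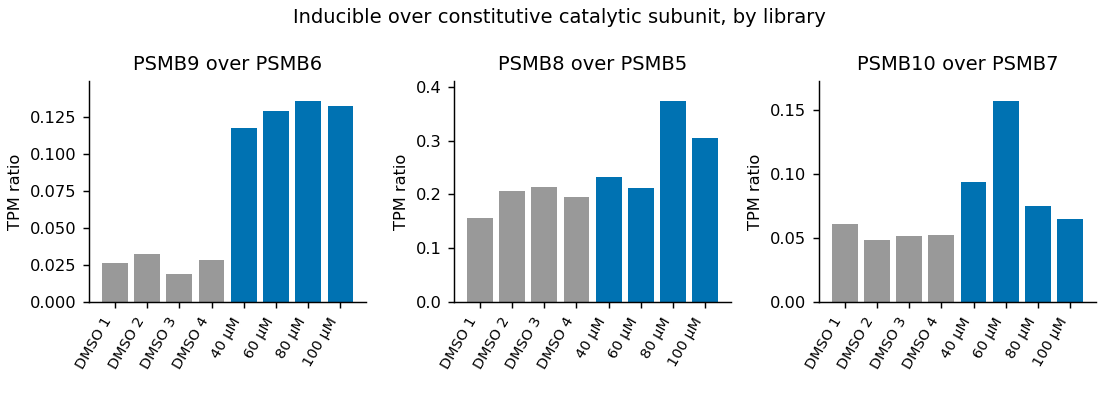
Ratio of each inducible catalytic subunit to its constitutive partner in deposited TPM, 1 bar per library, DMSO in grey and lenvatinib in blue, with linear axes that start at 0. PSMB9 over PSMB6 is between 0.0193 and 0.0327 in DMSO and between 0.118 and 0.136 with lenvatinib.

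Of 40 other genes of the pathway, all tested, edgeR's quasi-likelihood test with Benjamini-Hochberg adjustment called 0 without the covariate and 1 with it, a background of 1.5% of genes higher and 1.81% lower with the covariate. That gene was PSMB9, which rose by 1.72 ± 0.24 on the log2 scale (SE, adjusted p = 0.0140), from 5.87 ± 2.71 to 29.5 ± 16.9 CPM (SD, n = 4). With the covariate 29 of the 40 were negative, against 57.3% of all genes, and the median was -0.22, against -0.06. Groups did not overlap in 4 of them, 2 higher and 2 lower, against 3.08% and 3.38% of all genes: PSMB9 and PSME1, a subunit of the interferon-inducible activator, were higher, and PSMG1 and PSMG2, which pair as a chaperone of the alpha ring, were lower. PSME1 was at 88.8, 59.9, 42.4 and 77.8 CPM with DMSO and at 144, 117, 91.6 and 92.9 CPM over the doses. PSMG1 was at 40.9, 48.4, 42.6 and 48.3 CPM with DMSO and at 40.2, 15.0, 35.8 and 37.1 CPM over the doses, and the distance between its groups at 40 µM is small. PSMB8 and PSMB10 had estimates of 0.25 and -0.06 with the covariate. NFE2L1, the factor that drives subunit transcription when proteasome activity is short, was at 101 ± 37.3 CPM in DMSO and 117 ± 14.6 CPM with lenvatinib (log2 fold change 0.18 ± 0.30 with the covariate).

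NFE2L1 and its relative NFE2L2 read the antioxidant response element, whose core TGACNNNGC was searched on both strands in the RefSeq promoters of GRCh38.p14 (250 bases before to 50 after the start). Of the 36 members 31 had a promoter in that table, and 7 of them (22.6%) held a match, against 13.6% of all 27305 promoters and 15.4% of those of tested genes. The matches were in 1 of 12 core promoters (PSMB3) and 6 of 19 regulatory promoters (PSMC4, PSMD1, PSMD3, PSMD5, PSMD9 and PSMD12). The 250 bases upstream of the start are shown for the core member with a match and for a pair of lid subunits whose values at 60 µM went opposite ways, with the match in capitals.
PSMB3, GRCh38.p14 chr17:38752491-38752740, plus strand: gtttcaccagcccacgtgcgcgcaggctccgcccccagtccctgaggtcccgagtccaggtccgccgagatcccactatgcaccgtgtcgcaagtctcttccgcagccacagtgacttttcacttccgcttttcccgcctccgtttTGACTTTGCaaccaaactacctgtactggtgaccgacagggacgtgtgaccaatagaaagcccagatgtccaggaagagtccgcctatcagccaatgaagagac
PSMD3, GRCh38.p14 chr17:39980557-39980806, plus strand: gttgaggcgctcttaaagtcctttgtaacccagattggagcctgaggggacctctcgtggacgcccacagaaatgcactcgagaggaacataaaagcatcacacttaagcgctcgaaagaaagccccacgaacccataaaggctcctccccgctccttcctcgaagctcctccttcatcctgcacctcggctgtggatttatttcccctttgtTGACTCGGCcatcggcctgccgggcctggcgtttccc
PSMD12, GRCh38.p14 chr17:67366578-67366827, minus strand: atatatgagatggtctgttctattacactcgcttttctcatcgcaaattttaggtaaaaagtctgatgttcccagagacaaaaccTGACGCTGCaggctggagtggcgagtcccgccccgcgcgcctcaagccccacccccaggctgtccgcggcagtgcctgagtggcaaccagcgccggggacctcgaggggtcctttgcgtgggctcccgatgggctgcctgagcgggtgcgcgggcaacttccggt
PSMB3 was at 491, 301, 176 and 365 CPM with DMSO and at 436, 575, 205 and 206 CPM over the doses, and PSMD3 at 503, 309.8, 225 and 407 and 479, 585, 228 and 232 CPM, both above the DMSO range at 60 µM. PSMD12 was at 13.1, 33.9, 59.9 and 20.2 CPM with DMSO and at 5.77, 1.61, 29.7 and 29.6 CPM over the doses, below the range at 40 and 60 µM. A match is a run of letters and not a measured binding site.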

How the data were processed

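RNA-seq libraries of MHCC-97H cells (4 with DMSO, 4 with lenvatinib) were analysed from the table the authors deposited. Per the file headers it holds counts, TPM and FPKM for 20263 genes. Tools named in the submitters' processing notes are HISAT2, StringTie, bedtools and FastQC, with GRCh38 as the build; their versions, the gene annotation and the strand setting are, each of them, not given in the sources used here. Deposited counts are whole numbers, and deposited TPM and FPKM per library are proportional to each other.

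The members and gene lists were chosen with earlier results of these data known. All 11827 genes averaging 1 CPM or more were tested with edgeR 4.0.16 under R 4.3.3 (TMM, robust quasi-likelihood), without a covariate (6 residual degrees of freedom), with each library's GC slope as covariate (5), and for a dose slope per 20 µM centred at 70 µM (5), with Benjamini-Hochberg adjustment over all genes and a threshold of 0.05. In the first of these fits differences between doses count as spread. CPM values are TMM-scaled, apart from the filters and the values given for 3 counts, which are relative to library totals. GC content is that of the longest protein-coding transcript in GENCODE v29, coding GC that of the longest complete coding sequence. Values per library were given for members edgeR called in any of these 3 fits (0 members), members whose groups did not overlap, the 3 highest and 3 lowest estimates of each particle with the covariate, and PSMB5, PSMB6 and PSMB7; others are named as chosen later. Alternatives were DESeq2 1.42.0, limma-voom (limma 3.58.1), other scalings and filters, offsets smooth in GC content, a block on the title number, only the 80 and 100 µM libraries, and leaving out each library. The fits were also run on simulated counts with the same spread for every gene. A GC trend was added only for the fit with the covariate, in the linear form that the covariate takes up. The simulation therefore does not show how the fits behave on the spread and GC trends of these libraries.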

Additional observations from a re-analysis of the deposited data

Results flagged for a closer look

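Of 166 groups of 4 libraries looked at, 2 held a value far from the other 3 by Dixon's test at the 95% level; chance alone gives about 1 in 20 groups. Both are deposited TPM values of the 60 µM library within the lenvatinib arm. PSMB1, a structural beta subunit, was at 218.58 TPM there against 298 to 305 TPM at the other doses. PSMC4, an ATPase of the regulatory particle, was at 152 TPM against 230.2 to 235 TPM. That library also had the fewest counts and the steepest GC slope (1.84), whose part in these values was not tested.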

How the results depend on the processing

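The result least secure is whether single subunits passed the test. With the GC covariate edgeR called 0 and 0 members (core and regulatory); DESeq2 called 7 and 5, DESeq2 size factors within edgeR 7 and 4, the fit of only the 80 and 100 µM libraries 10 and 8, limma-voom 1 and 0, and the filter at 5 CPM 2 and 0, all lower. Leaving out 1 library gave 0 to 9 core and 0 to 8 regulatory calls, with medians of -0.53 to -0.32 and -0.49 to -0.23 and 33 to 34 negative members. Offsets smooth in GC content gave a core median of 0.26 and 20 negative members. They turned the sign of PSMA1 (0.11), PSMA2 (0.51), PSMA3 (0.24), PSMB2 (0.97), PSMB5 (0.36), PSMB6 (0.012), PSMB7 (0.11) and PSMD10 (0.36). Library totals turned PSMA3 (0.025), PSMD7 (0.0051) and PSMD10 (0.050), and only 80 and 100 µM turned PSMD7 (0.11). Leaving out 1 library gave -0.17 to 0.021 for PSMA3, -0.22 to 0.0072 for PSMD7 and -0.11 to 0.038 for PSMD10. The cause of these changes was not tested.

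Without the covariate, only the 80 and 100 µM libraries gave medians of -0.53 and -0.20, and leaving out 1 library gave -0.39 to -0.05 in the core and -0.61 to -0.25 in the regulatory particle, with 0 calls in each. The dose slope medians were 0.019 and 0.54 on library totals, the regulatory one -0.11 with the GC covariate, and -0.40 to -0.25 and 0.17 to 0.82 without 1 library (0.82 without 40 µM), with 0 calls in each. Members whose groups did not overlap were 1 core member on library totals, 3 core and 2 regulatory members on deposited TPM (alternatives added after the data were seen), and 2 core and 0 to 1 regulatory members without 1 library (PSMD11 without 80 µM, PSMC1 without 100 µM). The log2 difference of PSMB8 over PSMB5 was 0.54 with counts in place of TPM, where its groups no longer overlapped (exact permutation p = 0.0286). Without 1 library it was 0.36 to 0.64, that of PSMB10 over PSMB7 0.54 to 0.96 and that of PSMB9 over PSMB6 2.14 to 2.40.

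Whether the numbers in the sample titles pair the libraries is not stated in the labels. Deviations of same-numbered libraries correlated at 0.744, -0.495, 0.861 and -0.651, and no library correlated best with its own number. GC slopes of these pairs were 0.29 and 0.68, -0.51 and 1.84, -1.01 and -0.58, and -0.10 and -0.61. Their part in the correlations was not tested, so the correlations cannot settle the pairing. A replicate block changed no count of members called and turned the estimate of PSMD10 to 0.015. Depth limits the 60 µM library most, where 3 counts correspond to 0.295 CPM relative to the library total, before TMM scaling.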

Other observations

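TPM and count-based values of single subunits differ in ways that counts alone do not show. The ATPase gene PSMC2 had 4694 counts at 80 µM and 4619 at 100 µM but 160.2 and 87.0 deposited TPM. The beta subunits PSMB1 and PSMB7 varied less in deposited TPM than in TMM-scaled CPM over the 4 DMSO libraries, with coefficients of variation of 2.63% against 24.5% for PSMB1 and 4.62% against 30.0% for PSMB7. For the alpha subunits PSMA1 and PSMA2 the order was the opposite, with 24.7% against 7.29% for PSMA1 and 26.8% against 4.65% for PSMA2. These subunits of the same particle thus trade places as the steadiest mRNAs between the scales, and so do the members whose groups do not overlap.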
